A study of Pimephales promelas and Coturnix japonica and Xenopus laevis with 724 samples.

Results

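Fathead minnow (Pimephales promelas) embryos exposed to benzo[a]pyrene were examined in 15 RNA sequencing libraries, chosen as all the libraries in the deposited count table of that chemical in that life stage, out of 724 libraries in 49 tables of the whole series. The 5 libraries labelled CTRL were of embryos given dmso, the solvent control. The 5 labelled MED and the 5 labelled HIGH were of embryos given bap, read here as benzo[a]pyrene, at a middle and a high concentration. The labels give the life stage as els and the tissue as embryo in all 15, and give no concentration in units, no age and no exposure time. They also do not say whether a library is 1 embryo or a pool, so the p-values below weigh differences against the spread from library to library alone, part of which may be technical. The series as a whole exposed birds, amphibians and fish to 8 environmental chemicals.

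Benzo[a]pyrene is a polycyclic aromatic hydrocarbon formed when organic matter burns. In vertebrates, fish included, it binds the aryl hydrocarbon receptor, a transcription factor that moves to the nucleus with its partner ARNT and raises genes of its own clearance, above all the cytochrome P450 enzymes of the CYP1 family. Those enzymes oxidise the compound, and some of the products bind DNA. The table lists its features under identifiers beginning with s2f that are not paired with gene names, and 0 of the 23371 identifiers matched the reference gene table, so no value below can be tied to the receptor, to a CYP1 enzyme or to any other named gene. The results are therefore given by number, size, level and recurrence in other experiments, with 2 identifiers that rose and 2 that fell shown in every library.

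The libraries held 11986456 to 23830064 counts, with a median of 15132589, and 19503 to 20554 identifiers above 0. After a filter on low counts, 17137 identifiers were tested. The library labelled HIGH A stood apart from the rest. Its log2 levels correlated at 0.866 to 0.899 with those of the other libraries, which correlated at 0.964 to 0.991 among themselves. The composition factor that scales each library (TMM, trimmed mean of M-values) was 0.574 for HIGH A and 0.986 to 1.13 for the other 14. HIGH A had 3258 identifiers more than 2-fold above and 3343 more than 2-fold below the median of the other HIGH libraries, where the other libraries had 69 to 675 in either direction against their own groups. In CPM (counts scaled to a common library total), with a pseudocount of 0.5, its identifiers with a mean above 1000 CPM in the other 4 HIGH libraries lay at a median log2 ratio of 0.55 above their mean, and those between 10 and 100 CPM at −0.98. HIGH E stood apart to a lesser degree. Among the other HIGH libraries, the chi-square per degree of freedom of pairs with HIGH E was 30.5 to 45.8 and that of pairs of B, C and D was 6.41 to 7.89, and HIGH E had 675 identifiers more than 2-fold below its group's median. Among the CTRL libraries, CTRL A stood apart the most in the same measures. Its pairs with CTRL B to E had a chi-square per degree of freedom of 17.25 to 45.52. Pairs of CTRL B with C, D and E had 11.96 to 24.12, and pairs of CTRL C, D and E had 9.025 to 9.264. CTRL A had 537 identifiers more than 2-fold below its group's median. Why these libraries differ was not tested. Results below are given with all 15 libraries, and the main counts and sizes of change also without HIGH A. Not every value was repeated without it.

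The HIGH embryos differed from the CTRL embryos mainly by identifiers that were higher. By edgeR's quasi-likelihood test with Benjamini-Hochberg adjustment, 269 identifiers rose and 13 fell at an adjusted p below 0.05, which is 1.57% and 0.0759% of those tested. The raised identifiers had a median log2 fold change of 1.15, with a range of 0.38 to 5.31, beside a median of 0.02 over all identifiers tested. Of the 269, 162 rose by more than 1 on the log2 scale, 37 by more than 2 and 6 by more than 3. The 13 that fell had a median of −0.81, and the largest fall was −1.43. The tissue is given as embryo, which holds many cell types. A higher value can be more cells of a type or more RNA per cell, and a lower value fewer cells or less RNA per cell. These cannot be told apart.

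Without HIGH A the same comparison called 368 higher and 75 lower of 17246 tested, or 2.13% and 0.435%. Of the 269, 266 were also called without HIGH A, as were 12 of the 13 that fell. The median log2 fold change of the 269 was 0.95 without HIGH A, beside 1.15 with it. The share of calls that were higher went from 95.4% to 83.1%. With all 15 libraries DESeq2 called 420 higher and 66 lower, and an edgeR fit of HIGH and CTRL alone made 126 calls, 1 of them lower. Without HIGH A, the median rise of the list of 368 was 0.78 and the median fall of the 75 was −0.56 on the log2 scale. With HIGH E left out too, 452 were called higher and 108 lower of 17377, or 2.6% and 0.622%, among them 261 of the 269 and 12 of the 13.

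By their mean over all 15 libraries, the raised identifiers came from all levels of abundance, more often from the abundant ones. That mean includes the exposed libraries, so the rise itself moves identifiers to higher classes. For s2f_0007242005 it was 147 CPM, where the CTRL mean was 21.5 CPM. They made up 0.285% of tested identifiers with a mean below 1 CPM, 0.665% of those at 1 to 10, 1.96% of those at 10 to 100 and 3.9% of those above 100 CPM. A difference of a given size is also easier to call at a higher count. How far either set these shares was not tested, and shares by CTRL level were not computed. None of the 269 had a count of 0 in every CTRL library, and neither did any other of the 17137 tested. Detection in at least 1 unexposed library is therefore not particular to the raised identifiers. In 248 of the 269, every HIGH library was above every CTRL library, which held for 491 of all tested identifiers (2.87%). The reverse, every HIGH library below every CTRL library, held for 12 of the 13 that fell and for 153 of all tested (0.893%). The 269 and the 13 were chosen on HIGH against CTRL in these same libraries, so the counts without overlap describe them and test nothing.

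The raised identifiers together took a larger part of the RNA in exposed embryos. Their summed share of raw counts was 1.54% to 1.60% in the 5 CTRL libraries, 3.46% to 3.88% in the 5 MED libraries and 3.16% to 3.99% in the 5 HIGH libraries. The CTRL libraries did not overlap with either exposed level, and the MED range lay inside the HIGH range. HIGH A, at 3.80%, lay among the other HIGH libraries on this scale. After the composition factors its sum was 66126 CPM, while the other 4 HIGH libraries held 31988 to 36771 CPM. The mean sum was 15380 CPM ± 232 (SD, n = 5) in CTRL, 34480 CPM ± 1314 (SD, n = 5) in MED and 40480 CPM ± 14490 (SD, n = 5) in HIGH, or 34060 CPM ± 2430 (SD, n = 4) without HIGH A. The identifiers were chosen for their difference between HIGH and CTRL, so these sums describe them and test nothing.

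**Figure D1:**
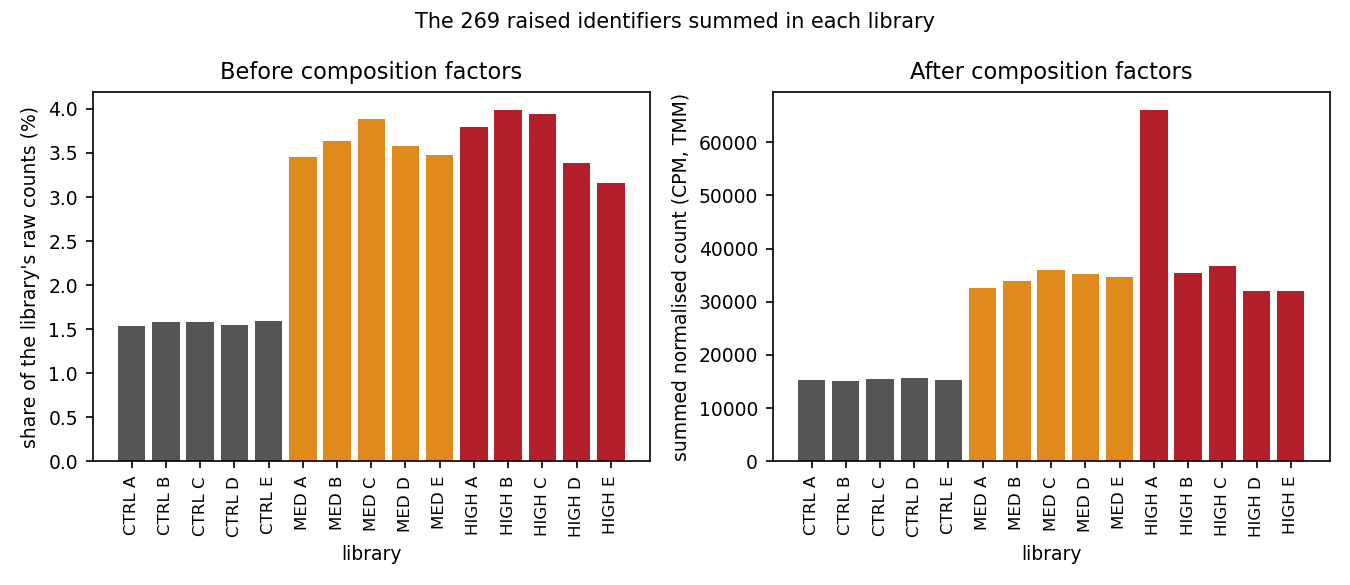
The 269 raised identifiers summed in each of the 15 libraries, as a share of raw counts in percent (left) and as CPM after the TMM composition factors (right), with 1 bar per library coloured by level (grey CTRL, orange MED, red HIGH). Exposed libraries lie above the CTRL libraries on both scales, and HIGH A leaves the HIGH range (3.80% against 3.16% to 3.99%) after the factors, at 66126 CPM.

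The MED embryos also differed from CTRL mainly by identifiers that were higher. MED against CTRL called 179 identifiers higher and 6 lower by the same test, 1.04% and 0.035% of those tested. The 179 had a median log2 fold change of 1 at MED. All 3 levels share the fit's estimate of the spread between libraries, and without HIGH A the MED comparison called 419 higher and 65 lower, 2.43% and 0.377% of 17246. A fit of MED and CTRL alone called 536, and leaving out CTRL B left 123. With all 15 libraries HIGH had more calls than MED in the main fit, and by DESeq2 (486 beside 281). In a limma voom fit with sample weights HIGH had fewer (699 beside 784). It also had fewer where each level was fitted with CTRL alone (126 beside 536). Without HIGH A the main fit gave HIGH fewer calls higher, 368 beside 419, and more calls lower, 75 beside 65. The groups then held 4 HIGH and 5 MED libraries, so these counts were not made at equal size. For the 269 identifiers raised at HIGH, the median log2 fold change was 1.15 at HIGH and 0.91 at MED. Both values use the same CTRL libraries. The HIGH median was 0.95 without HIGH A. The list was chosen on its HIGH change, which favours HIGH. For the 179 chosen on their MED change the medians were 1.07 at HIGH and 1 at MED, and their HIGH minus MED difference had a median of 0.06, or −0.01 without HIGH A. For the 13 that fell the medians were −0.81 and −0.65.

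The direct test of HIGH against MED called no identifier. Of 17137 tested, 0 (0%) passed, the lowest adjusted p was 0.758, and DESeq2 called 0 as well. Before adjustment 875 had a p below 0.05. Without HIGH A edgeR and DESeq2 again called 0, and 464 had an unadjusted p below 0.05. Among the 269 raised identifiers the HIGH minus MED difference had a median of 0.17 on the log2 scale, with quartiles of 0.03 and 0.47. Without HIGH A the median was 0.02 with quartiles of −0.04 and 0.09. Without HIGH A and HIGH E the test again called 0, with 325 at an unadjusted p below 0.05, and the median was 0.05. After the composition factors, HIGH A was the highest of the 15 libraries for 199 of the 269, and for 6217 of all 17137 tested. A missed threshold does not show that the concentrations act alike.

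**Figure D2:**
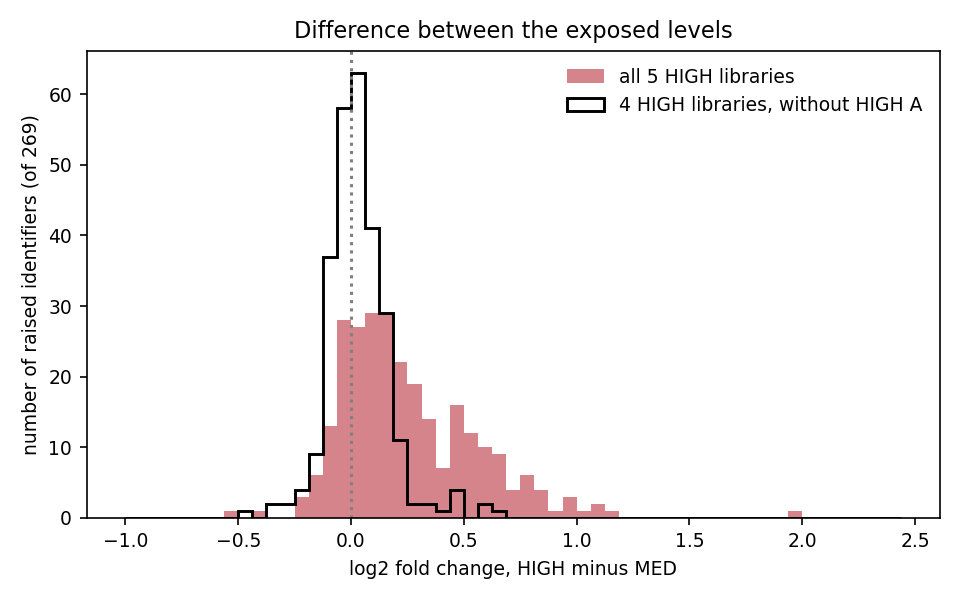
Histogram of the log2 fold change of HIGH minus MED for the 269 raised identifiers, with all 5 HIGH libraries (red) and without HIGH A (black outline). The median lies at 0.17 with HIGH A and at 0.02 without it.

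The identifier with the lowest p was s2f_0007242005. Its CTRL values were 22.8, 20.2, 19.4, 22.1 and 22.7 CPM in libraries A to E. The MED values were 171, 163, 197, 209 and 175 CPM, and the HIGH values were 377, 200, 228, 189 and 190 CPM. Every exposed library was above every CTRL library, MED and HIGH overlapped, and HIGH A was the highest of the 15 after its composition factor of 0.574. Before the factors it was not the highest. HIGH A held 3146 of 14523819 counts and HIGH B 3358 of 14889768. The log2 fold change of HIGH over CTRL was 3.46 ± 0.19 (SE, edgeR adjusted p = 4.69e-08), an 11-fold rise, and 3.22 without HIGH A (adjusted p = 2.6e-12). At MED it was 3.09 ± 0.19 (SE, adjusted p = 2.17e-07), also against those CTRL libraries. HIGH minus MED was 0.38 with an unadjusted 95% interval of 0.01 to 0.74, and 0.14 with an interval of −0.05 to 0.33 without HIGH A. Neither passed the adjustment over all identifiers (edgeR adjusted p = 0.758 and 0.998).

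The largest rise among identifiers with enough counts was that of s2f_0023079001, which was close to undetected in unexposed embryos. The CTRL libraries A to E held 13, 21, 11, 4 and 6 counts, or 0.571, 0.844, 0.9, 0.247 and 0.373 CPM. The MED libraries held 12.5, 12.6, 16.4, 15.7 and 12.9 CPM. The HIGH libraries held 45.7, 19.8, 20.1, 16.4 and 17.7 CPM, where the 45.7 of HIGH A is after its composition factor of 0.574. The CTRL libraries lay far below all exposed ones, and the highest MED library met the lowest HIGH library at 16.4 CPM. The log2 fold change of HIGH over CTRL was 5.31 ± 0.35 (SE, edgeR adjusted p = 1.16e-07), or 39.7-fold. It was 4.94 without HIGH A, or 30.7-fold, and 4.55 at MED, or 23.4-fold. HIGH minus MED was 0.76 with a 95% interval of 0.20 to 1.32, and 0.40 with an interval of 0.08 to 0.72 without HIGH A. Neither passed the adjustment over all identifiers (adjusted p = 0.758 and 0.998).

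Both identifiers shown for a fall changed less. The lower p was that of s2f_0000246008, with 15, 12.3, 11.2, 9.68 and 13.6 CPM in CTRL libraries A to E. In MED it had 7.91, 9.01, 7.39, 9.68 and 7.58 CPM, and in HIGH 6, 5.97, 5.76, 7.67 and 5.92 CPM. All HIGH libraries were below all CTRL libraries, the highest MED value equalled the lowest CTRL value, and HIGH A lay with the other HIGH libraries. The log2 fold change of HIGH over CTRL was −0.98 ± 0.14 (SE, edgeR adjusted p = 0.000712). At MED it was −0.57 ± 0.14 (SE), which missed the threshold (adjusted p = 0.0694). HIGH minus MED was −0.41 with an unadjusted 95% interval of −0.71 to −0.10. It did not pass the adjustment over all identifiers (edgeR adjusted p = 0.758, and 0.998 without HIGH A). The identifier was also chosen on its HIGH against CTRL change, which favours a difference between HIGH and MED. Its level also varied among the CTRL libraries of other minnow embryo experiments. They held 3.32 to 9.9 CPM (fluoxetine), 11.5 to 20.1 (selenomethionine), 7.71 to 26.5 (lead) and 7.11 to 28.1 (hexabromocyclododecane). Others held 6.55 to 28.8 CPM (chlorpyrifos), 3.42 to 41.3 (ethinylestradiol) and 9.19 to 81.4 (trenbolone).

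The other, s2f_0000261004, had the largest fall among those whose groups did not overlap. It held 3.16, 3.86, 6.46, 7.46 and 3.42 CPM in CTRL libraries A to E. It held 1.65, 2.06, 2.97, 3 and 2.57 CPM in MED and 2.28, 1.31, 2.51, 1.73 and 1.16 CPM in HIGH. Each exposed library was below each CTRL library, and MED and HIGH overlapped. The log2 fold change of HIGH over CTRL was −1.43 ± 0.29 (SE, edgeR adjusted p = 0.014), and in a fit of HIGH and CTRL alone it kept this size with an adjusted p of 0.0751. At MED it was −0.98 ± 0.28 (SE, adjusted p = 0.184).

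**Figure D3:**
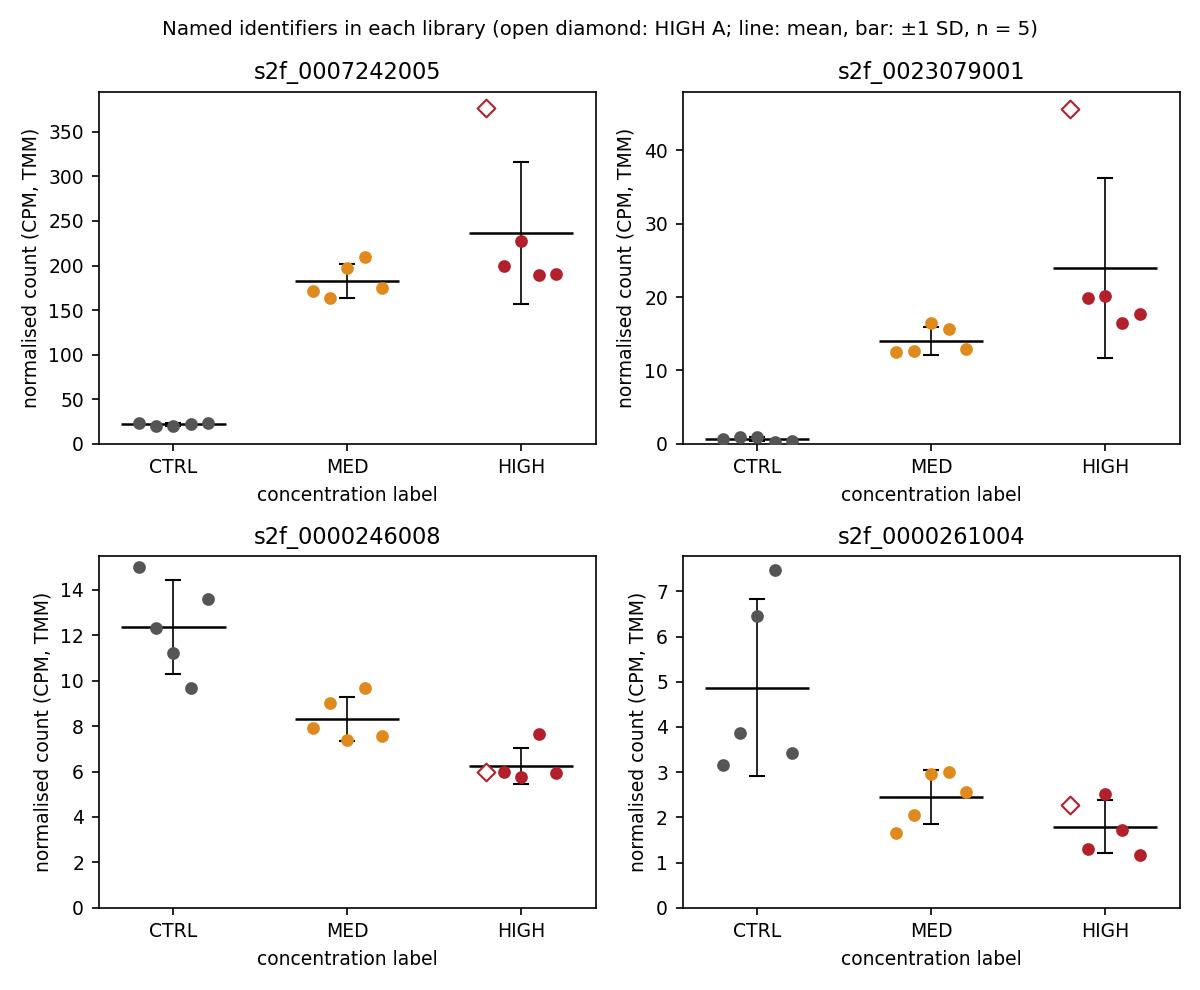
Normalised counts in CPM of the 4 named identifiers in each library by concentration label, with the mean (line) and 1 SD (bar) of 5 libraries and HIGH A as an open diamond. For the identifiers that rose, HIGH A is at 377 and 45.7 CPM after its composition factor of 0.574, above the other 4 HIGH libraries. For those that fell it lies among them.

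Identifiers of the same kind are used across the tables of the series, but not every table lists all of them. Of the 269, 239 are listed for clawed frog embryos and 264 for trout embryos. All 269 are listed for the other minnow experiments used here. Those listed could be followed in experiments with their own control libraries. The test was the same, HIGH against CTRL within each table by the concentration label. In the clawed frog and hexabromocyclododecane tables the libraries labelled HIGH have titles with the letter M and those labelled MED the letter L, where the minnow benzo[a]pyrene titles have H and M, and what the letters stand for is not stated. In clawed frog (Xenopus laevis) embryos given benzo[a]pyrene, 117 of those tested were called higher, 53.4%, beside 11% of all identifiers tested there, and 6 were called lower beside 9.05%. Their median log2 fold change was 0.30, with −0.01 over all tested, and 44 lay above 1 on the log2 scale. In rainbow trout (Oncorhynchus mykiss) embryos at the highest label, 81, 16 of the 255 tested were called higher, 6.27%, beside 0.209% of all, with none called lower beside 0.0656%. Those 16 were 45.7% of the 35 called higher in trout, and the 117 were 6.72% of the 1741 called higher in the frog. Without 1 of the trout level 81 libraries, D or E, the 16 became 8 or 9. The titles of the 7 trout CTRL libraries begin with C in 3 and with S in 4, all labelled dmso. Against the 3 alone 7 of the raised identifiers were called higher, beside 0.0832% of all, and against the 4 alone 9, beside 0.138%. How HIGH compares in dose between the species is not stated. Identifiers were matched between species by name alone, and whether 1 name stands for the same gene in each species was not checked. With the list of 368 raised without HIGH A, the shares were 48.5% in the frog and 4.56% in trout.

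Both identifiers shown for a fall were also measured in the frog. For s2f_0000246008 the frog embryos had 56.3 CPM ± 5.77 (SD, n = 5) in CTRL and 29.5 CPM ± 3.01 (SD, n = 5) at HIGH. The ranges, 50.9 to 64.8 and 25.1 to 33 CPM, did not overlap. Its log2 fold change there was −0.94 ± 0.12 (SE, edgeR adjusted p = 1.62e-05), beside −0.98 in the minnow, and the difference between species was −0.10 ± 0.19 (SE, adjusted p = 0.814). For s2f_0000261004 the frog value was −0.58 ± 0.25 (SE, adjusted p = 0.114). The raised identifiers shown are not listed for the frog. Of the 8 minnow identifiers that fell and were tested in the frog, 2 were called lower there, beside 9.05% of all. In trout embryos at level 81, 0 of the 12 tested were called lower, beside 0.0656% of all. Their median log2 fold change in trout was −0.05, and 7 lay below 0. Neither identifier shown was called in trout. The trout value was −0.20 for s2f_0000246008 (edgeR adjusted p = 0.967) and 0.22 for s2f_0000261004 (edgeR adjusted p = 0.985).

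In trout, where 5 concentration labels were given, the raised identifiers shown could be followed over a series. For s2f_0023079001 the 7 CTRL libraries had 0.654 CPM ± 0.21 (SD), with means of 0.706 in the 3 titled C and 0.615 in the 4 titled S, and the levels 1, 3, 9, 27 and 81 had means of 0.835, 0.959, 1.51, 2.14 and 2.13 CPM, each of 4 libraries. The CTRL range was 0.379 to 0.987 CPM, the level 81 libraries lay at 1.82 to 2.67 CPM without overlap, and levels 9 and 27 each had libraries inside the CTRL range. The log2 fold change at 81 was 1.75 ± 0.33 (SE, edgeR adjusted p = 0.00767). It was 1.59 against the controls titled C and 1.87 against those titled S, and neither passed the threshold (edgeR adjusted p = 0.309 and 0.0582). For s2f_0007242005 the CTRL mean was 27 CPM ± 1.73 (SD, n = 7) and the level 81 mean 33.8 CPM ± 2.25 (SD, n = 4), with no overlap. That was a log2 fold change of 0.32 ± 0.07 (SE, edgeR adjusted p = 0.0302), with 0.31 and 0.32 against either kind of control alone (edgeR adjusted p = 0.336 and 0.156). The minnow value was 3.46, and the difference between these species was not tested.

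**Figure D4:**
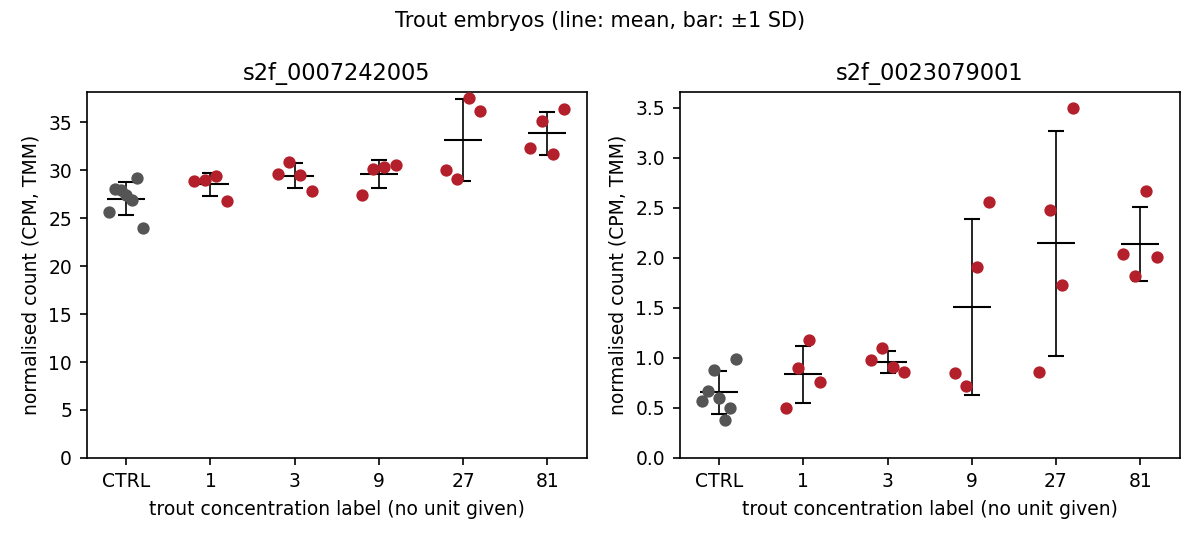
Normalised counts in CPM of the raised identifiers s2f_0007242005 and s2f_0023079001 in trout embryos by concentration label, with each library as a point, the mean as a line and 1 SD as a bar (7 CTRL libraries, 4 at each other level). The level 81 libraries, at 31.7 to 36.4 and 1.82 to 2.67 CPM, lie above all CTRL libraries in both.

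In adult fathead minnow liver given benzo[a]pyrene the raised identifiers had a median change near 0, with a wide range. The liver table called 0 identifiers higher (0%) and 0 lower of 12733 tested by edgeR, with 419 at an unadjusted p below 0.05. The 249 raised identifiers tested there had a median log2 fold change of −0.01, beside −0.004 over all, and 122 of them lay above 0. The quartiles were −0.15 and 0.15, the range ran from −1.09 to 2.98, and 4 lay above 1, none of them called. For s2f_0007242005 the liver had 2.07 CPM ± 0.32 (SD, n = 5) in CTRL and 1.69 CPM ± 0.39 (SD, n = 5) at HIGH. Its ranges overlapped, at 1.7 to 2.44 and 1.4 to 2.37 CPM. The test of the difference itself, HIGH minus CTRL in embryos against HIGH minus CTRL in liver, called 94 identifiers larger in the embryo (0.542% of 17332) and 5 smaller (0.0288%). Leaving out CTRL B of the embryo table took these 99 to 64. Only 12733 identifiers passed the count filter in the liver table alone, so part of the 17332 had low counts in liver. For s2f_0007242005 that difference was 3.75 ± 0.25 on the log2 scale (SE, edgeR adjusted p = 6.62e-11), and 3.5 without HIGH A. Life stage, tissue and table are the same split and cannot be told apart. How HIGH compares in dose between the embryos and the adults is not stated either.

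Of the 7 other chemicals tested in minnow embryos, lead called the most of the raised identifiers. HIGH lead called 71 of the 268 tested higher, 26.5%, beside 6.69% of all identifiers tested, and 1 lower beside 5.91%. Their median log2 fold change with lead was 0.16, beside 0.0004 over all, and 233 of the 268 lay above 0, as did 50.1% of all. The 71 were 6.07% of the 1170 identifiers called higher with lead. Of the 13 that fell with benzo[a]pyrene, 4 were called lower with lead, s2f_0000261004 among them at −1.05 ± 0.25 (SE, edgeR adjusted p = 0.0109).

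Neither of the raised identifiers shown was called with lead. For s2f_0007242005 the lead table had 22.9 CPM ± 4.9 (SD, n = 5) in CTRL and 26.8 CPM ± 4.55 (SD, n = 5) at HIGH, with overlap (adjusted p = 0.374 by edgeR). For s2f_0023079001 it had 0.726 CPM ± 0.44 (SD, n = 5) and 1.7 CPM ± 0.64 (SD, n = 5), also with overlap, and its log2 fold change of 1.25 ± 0.40 (SE) missed the threshold (adjusted p = 0.0529 by edgeR). The difference in the HIGH minus CTRL change between the chemicals was 3.23 ± 0.24 for the former (SE, edgeR adjusted p = 6.78e-10). It was 4.05 ± 0.57 for the latter (SE, edgeR adjusted p = 4.43e-05). Without HIGH A the differences were 3 for the former and 3.69 for the latter. Over all 17795 identifiers tested, 178 (1%) changed more upward with benzo[a]pyrene than with lead and 49 (0.275%) less. Without HIGH A the calls numbered 558, of which 345 were more upward with benzo[a]pyrene. Chemical and table are the same split.

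At HIGH, the other 6 chemicals called few or none of the raised identifiers. The ethinylestradiol and fluoxetine experiments also held exposed libraries with other concentration labels, which were left out. Ethinylestradiol called 2 of 264 higher, beside 0.0894% of all, and selenomethionine 3 of 267, beside 0.541%. Hexabromocyclododecane called 0 of 267, beside 0.0578% of all. Fluoxetine, trenbolone and chlorpyrifos called no identifier higher at all (0%) by edgeR, with 1102, 626 and 686 at an unadjusted p below 0.05. The median log2 fold change of the raised identifiers lay between −0.05 with fluoxetine and 0.02 with hexabromocyclododecane. In all, 196 of the 269 were called higher with none of the 7 other chemicals, 70 with 1 and 3 with 2. The same shares over all identifiers were not computed. As most of these chemicals called few or no identifiers, the counts describe the list and do not set it apart.

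**Figure D5:**
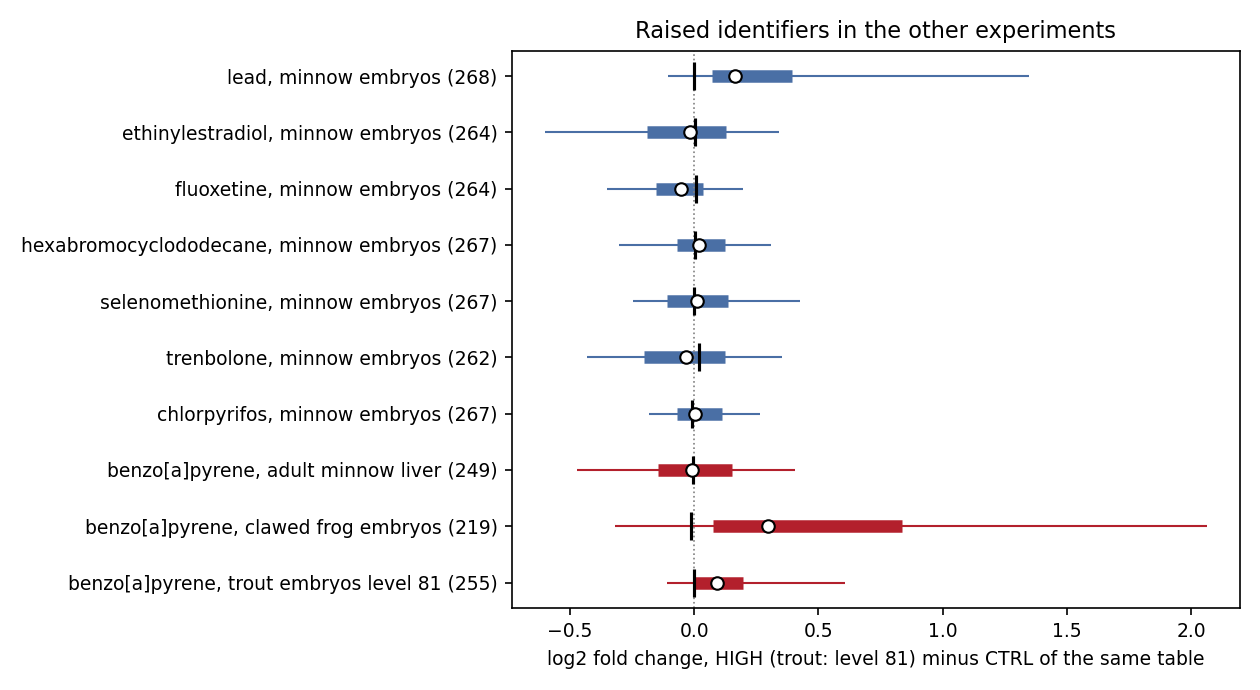
Log2 fold change of the raised identifiers in the other experiments, HIGH (trout level 81) minus the CTRL libraries of the same table, with the number tested in brackets. Circles are medians, thick bars run from the 25th to the 75th percentile, thin lines from the 5th to the 95th, and upright ticks are medians over all identifiers tested. Clawed frog (0.30), lead (0.16) and trout (0.09) have the highest medians.

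Splitting the 269 by where else they were called gave groups with differing medians, and these differences were not tested. Among those tested in both trout and frog, the 115 called higher in either had a median log2 fold change at HIGH in the minnow of 1.33, and the 98 called in neither one of 0.98. The 56 not tested in both had a median of 1.42. The 73 called higher with another chemical in minnow embryos had a median of 1, and the remaining 196 one of 1.26. Their quartiles overlapped, at 0.82 to 1.41 for the 73 and 0.84 to 1.75 for the 196. There were 10 identifiers called higher in minnow, frog and trout embryos alike. A set of 92 was called in trout or frog with benzo[a]pyrene and with no other chemical in minnow embryos. Of the 98 called in neither species, 68 were called with no other chemical either. The shares of all identifiers in such sets were not computed, so these counts only describe the list.

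The sizes of change differed between minnow and frog for part of the shared identifiers. Of 15684 tested, 258 (1.64%) changed more upward in the minnow and 247 (1.57%) less by the test of the difference between species. Without HIGH A these were 422 and 645. Of the 239 raised minnow identifiers in that fit, 100 were called larger in the minnow and 8 smaller. They were chosen on the minnow's own change, so this count describes them. In the frog table the raised identifiers had a median log2 ratio to CTRL of 0.20 at MED and of 0.29 at HIGH, with a pseudocount of 0.5 CPM and the same CTRL libraries in both.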

How the data were processed

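RNA was extracted with a column kit and sequenced as 101-bp paired-end reads on NovaSeq or HiSeq instruments, per the labels' protocols. The authors deposited raw counts per identifier, per the file headers, with whole numbers and differing totals. No aligner, counter or build is named: these are not given in the sources used. Samples were grouped by the chemical and concentration labels. Of the 49 tables, 11 were read, and all their columns matched a sample. Identifiers were filtered with filterByExpr (minimum count 10, minimum total 15), scaled with TMM factors and tested with edgeR 4.0.16 (limma 3.58.1, R 4.3.3) by glmQLFit and glmQLFTest, two-sided, with Benjamini-Hochberg adjustment over all identifiers tested and a threshold of 0.05. The 3 levels of the table entered 1 fit. Differences between tables were an interaction term over both. CPM are after TMM factors unless stated. DESeq2 1.42.0 was an alternative, with other scalings, no filter, a replicate block and each library left out. Deviations of same-letter libraries correlated at −0.216 to 0.54, above 0.1 in 8 of 15 pairs. The pairs with HIGH A or HIGH E lay at −0.216 to 0.0282. These correlations do not decide whether a letter pairs libraries. The labels do not say what a letter marks, so the main fit did not pair by letter, and the block is among the alternatives. No pair of replicates agreed within sampling noise (lowest chi-square per degree of freedom 5.98).

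The members and lists were chosen with earlier results of these data known. Named identifiers were the lowest p and, among those with a mean of at least 10 CTRL counts, the largest change, in each direction, where HIGH and CTRL did not overlap. No gene lists could be used, since identifiers are not paired with names.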

Additional observations from a re-analysis of the deposited data

Results flagged for a closer look

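In 8 of the 27 groups of 5 values checked, 1 library lay far from the other 4. Chance gives about 1 in 20 for a single check, but the 27 are not independent, so their number tests nothing. For HIGH A the TMM factor enters the summed level and both identifier values given next. These identifiers were also chosen on their HIGH values. HIGH A accounted for 5 of them: it had the fewest identifiers above 0 (19503, others 20172 to 20420), the lowest TMM factor (0.574, others 0.988 to 1.13), the highest summed level of the raised identifiers (66100 CPM, others 32000 to 36800) and the highest values of s2f_0007242005 (377 CPM, others 189 to 228) and s2f_0023079001 (45.7 CPM, others 16.4 to 20.1). The other 3 were the total counts of MED B (18114912, others 14077009 to 15132589) and HIGH C (21223644, others 14523819 to 15736137), and s2f_0000246008 in HIGH D (7.67 CPM, others 5.76 to 6).

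The change from CTRL to HIGH differed between experiments by a test of the difference itself. It did so for 99 identifiers between minnow embryos and adult liver, for 227 between benzo[a]pyrene and lead in minnow embryos and for 505 between minnow and clawed frog embryos. For s2f_0007242005 the difference was 3.75 on the log2 scale against liver and 3.23 against lead. For s2f_0023079001 it was 4.05 against lead. The 6.03 of s2f_0023079001 against liver depends on the prior count, since the liver libraries held 0 to 12 counts of it.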

How the results depend on the processing

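Of 149 counts of calls under other settings, many of them leaving out 1 library in turn, most stayed within 1.5 times. Those of HIGH against MED, all at 0 as in the main fit, were counted as within. Among the rest, DESeq2 gave 486 calls for HIGH against CTRL (282 in the report), 281 for MED against CTRL (185), and 195, 364 and 940 for the differences from liver, lead and frog (99, 227 and 505). A fit of only the groups compared gave 126 for HIGH, 536 for MED, and 52, 133 and 287 for the differences. Sample weights in limma voom, an alternative chosen after seeing the data, gave 699 for HIGH and 784 for MED, with a weight of 0.0475 for HIGH A and 0.297 for HIGH E. Leaving out both HIGH A and HIGH E gave 560 for HIGH and 649 for MED. In trout, 7 (controls titled C) and 9 (controls titled S) of the raised identifiers were called. Leaving out 1 library, within or beyond 1.5 times, gave 200 (CTRL B) to 443 (HIGH A) calls for HIGH, 123 (CTRL B) to 484 (HIGH A) for MED, 64 (CTRL B) to 124 for the difference from liver, 172 to 558 (HIGH A) from lead and 380 to 1067 (HIGH A) from frog, and 8 to 15 of the raised identifiers in trout. Leaving HIGH libraries out of the MED fit, HIGH A and HIGH E out together, and all settings of the raised identifiers in other tables, were also chosen after seeing the data. The cause of each shift was not tested. HIGH against MED stayed at 0 in every setting run.

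With the replicate letter as a block, HIGH against CTRL gave 225 calls and MED against CTRL 156, and the differences 90, 258 and 577. Some same-letter pairs deviated together and others did not, and the labels do not say what a letter marks. Of 72 alternative values of the named identifiers none changed sign and 1 left the threshold (s2f_0000261004, adjusted p 0.0751 with HIGH and CTRL alone). Counts per library and 5 libraries a group limit what small changes can be called.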
